A study of Mus musculus with 7 samples.

Results

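The genes described here encode 10 matricellular and adhesive matrix proteins, chosen by name: Postn, Sparc, Thbs1, Thbs2, Tnc, Fn1, Tgfbi, Ctgf, Cyr61 and Dpt. All 10 were measured, by 18 probe sets, among 12393 genes and 20380 probe sets that carry 1 gene symbol. A probe set is the group of short array probes that reads a transcript. Where a gene had several, the set with the highest mean over all arrays was taken as its main one, and the others are shown as well. The platform annotation lists Ctgf and Cyr61 under their current symbols Ccn2 and Ccn1. A further probe set, 1421811_at, is annotated to both Pald1 and Thbs1 and was not used.

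RNA came from bone marrow stromal cells of double transgenic OsxCre-mCherry;OcnCre-Topaz mice aged 4 to 6 weeks, sorted by flow cytometry 6 days after tamoxifen. Every array therefore shares the reporters, the tamoxifen and the age. The Topaz Osteocalcin arrays (Ocn+, n = 3) hold cells with the green reporter driven through the osteocalcin promoter, which is active in mature osteoblasts. The mCherry Osterix arrays (Osx+, n = 4) hold cells with the red reporter driven through the promoter of osterix, the factor that commits precursors to the osteoblast fate. Cells carrying both colours were not analysed here. Where a reporter depends on Cre, it records that the promoter was active earlier, not that the gene is expressed at sorting. Whether both reporters depend on Cre and on tamoxifen was not examined here. The labels do not say which arrays came from the same animal, whether animals were pooled, or whether replicates were separate animals. Every test below therefore measures only the spread between these arrays, and how much of it is technical is not known. Within each group that spread includes arrays of high and of low Xist signal, given below.

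Matricellular proteins are secreted into the extracellular matrix, where they bind collagens, growth factors and cell surface receptors and tune adhesion more than they bear load. Integrins are the main receptors of the group, and transforming growth factor beta and mechanical strain are well known inducers of several of its genes. In bone, periostin (Postn) marks the periosteum, Sparc (osteonectin) is an abundant collagen-binding protein of mineralized matrix, and fibronectin (Fn1) is laid down early by osteoblast precursors.

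Signals are log2 values on which a step of 1 means a doubling. All differences are Ocn+ minus Osx+ on that scale, from limma fitted over all genes with Benjamini-Hochberg adjustment, and intervals are 95% intervals of that fit. Among the 10 genes 0 passed an adjusted p of 0.05, as did 0 of all 12393 genes (0%). An unadjusted p under 0.05 was found for 658 of all genes, or 5.31%. For 2 of the 10, Dpt and Postn, the unadjusted p was under 0.05, both lower in Ocn+ arrays, a state found for 1.83% of all genes, and 0 of the 10 had one higher in Ocn+ arrays, against 3.48%. The arrays of the groups did not overlap for 3 of the 10, Dpt, Postn and Tnc, each lower in Ocn+ arrays, against 2.53% of all genes. In the other direction 0 of the 10 were apart, against 4.37% of all genes. Differences were below 0 for 6 of the 10 and for 47.3% of all genes, and the median difference was -0.16 for the 10 and 0.02 for all genes. In these sorted pools, fewer cells of a type and less RNA per cell cannot be told apart.

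**Figure D1:**
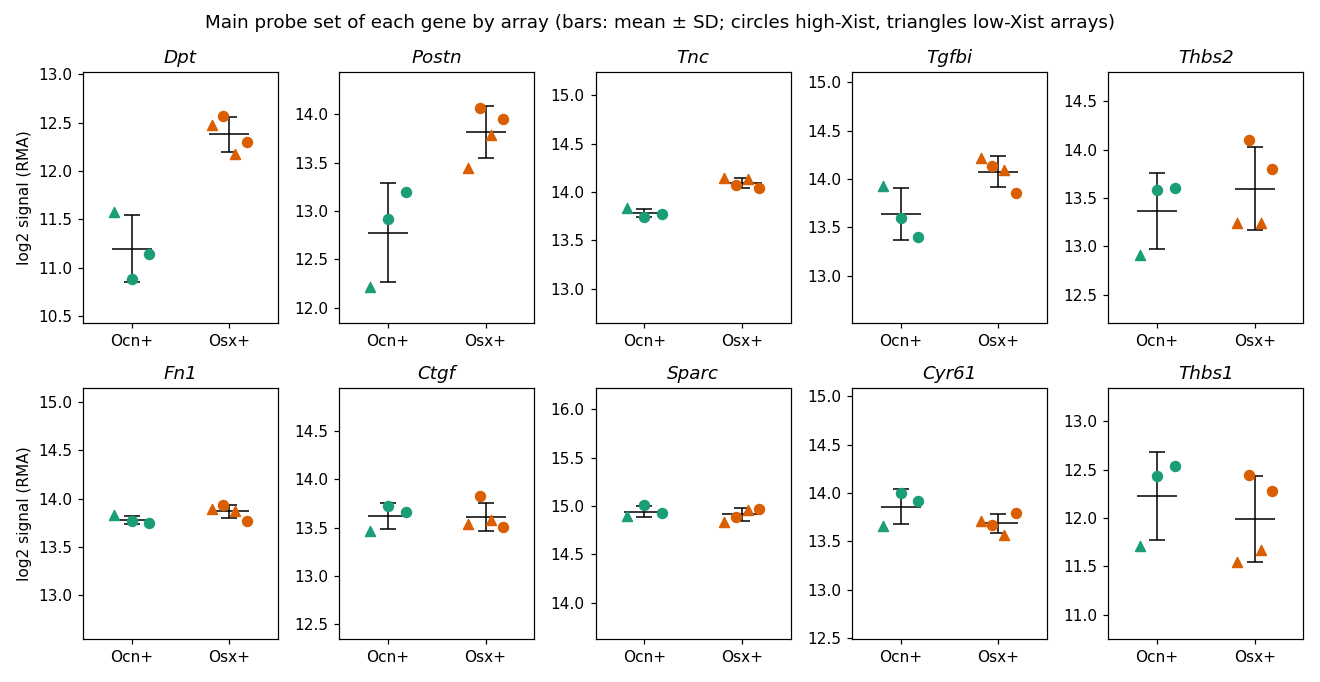
Log2 signal of the main probe set of each gene on the 3 Ocn+ (green) and 4 Osx+ (orange) arrays, with mean and SD; all panels span the same number of log2 units. Dpt, Postn and Tnc lie apart between the groups, and the triangles, the 3 arrays with low Xist signal, sit below the circles for Thbs1 and Thbs2.

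Dpt, which encodes dermatopontin, a small protein that binds decorin and collagen fibrils, had the largest difference of the 10. Its signal was 11.57, 10.88 and 11.14 on Ocn+ replicates 1, 2 and 3, and 12.48, 12.57, 12.17 and 12.30 on Osx+ replicates 1 to 4. Every Ocn+ array lay below every Osx+ array, and the gap between the nearest arrays was wider than the spread of the Osx+ arrays. The means were 11.20 ± 0.35 (SD, n = 3) and 12.38 ± 0.18 (SD, n = 4), a 2.27-fold lower signal in Ocn+ arrays. The difference was -1.18 (SE 0.21, interval -1.68 to -0.69), and its limma adjusted p over all genes was 0.607. With arrays weighted by their fit the difference was -1.39 and the limma adjusted p 0.0263. That setting called 97 genes, or 0.783% of all, with 0.153% of all genes called lower. It weighted Ocn+ replicate 2 most (6.02) and Osx+ replicate 1 least (0.24), so it leans on few arrays.

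Postn encodes periostin, a protein that binds collagen and integrins and helps in collagen cross-linking. Its signal was 12.21, 12.92 and 13.20 on Ocn+ replicates 1, 2 and 3, and 13.45, 14.07, 13.79 and 13.95 on Osx+ replicates 1 to 4. The groups did not overlap, and Ocn+ replicate 1 was the lowest of all arrays. The means were 12.78 ± 0.51 (SD, n = 3) and 13.81 ± 0.27 (SD, n = 4), a 2.05-fold lower signal in Ocn+ arrays. The difference of -1.04 (SE 0.28, interval -1.69 to -0.39) had a limma adjusted p of 0.731. Without Ocn+ replicate 1 the difference was -0.76, the smallest of any setting tried. Dpt and Postn were the 2 of the 10 with a difference past 1 log2 unit, which 1.26% of all genes had in this direction. They did not share their order of arrays, since Ocn+ replicate 1 was the highest Ocn+ array for Dpt and the lowest for Postn.

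The start regions of these genes are shown because they had the largest differences, with Cyr61 as a gene that stood slightly the other way. RefSeq's table of promoters (build GRCm38.p6) held 7 of the 10 genes, all but Thbs1, Fn1 and Ctgf. Each sequence runs 5′ to 3′ on the gene's strand from 120 bases before to 30 bases after an annotated start, and capitals mark matches to the motifs named below. The Dpt window is chr1:164796543-164796692 on the plus strand. The Postn window is chr3:54360987-54361136 on the plus strand, the downstream of its annotated starts. The Cyr61 window is chr3:145649956-145650105 on the minus strand.
Dpt: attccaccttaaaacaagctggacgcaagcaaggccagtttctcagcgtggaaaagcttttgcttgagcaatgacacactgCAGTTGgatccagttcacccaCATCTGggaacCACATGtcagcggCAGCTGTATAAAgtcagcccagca
Postn: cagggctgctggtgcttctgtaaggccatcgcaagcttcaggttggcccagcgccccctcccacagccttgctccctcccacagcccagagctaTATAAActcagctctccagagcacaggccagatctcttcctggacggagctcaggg
Cyr61: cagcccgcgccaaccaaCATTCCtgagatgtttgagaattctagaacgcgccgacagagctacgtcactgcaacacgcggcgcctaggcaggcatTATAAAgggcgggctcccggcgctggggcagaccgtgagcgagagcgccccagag

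Both strands were searched for the TATA box, spelled TATAAA, and the TEAD factor site, spelled GGAATG. They were also searched for the AP-1 site, spelled TGANTCA. The E-box, spelled CANNTG, and the CArG box of serum response factor completed the search. Of the 9 windows of the 7 genes, 3 held TATAAA, and they are the 3 printed. The other 6, which belong to Sparc, Tgfbi, Thbs2, both Tnc starts and the upstream Postn start, did not. Variant spellings were not searched, such as the tatataag in the window of the downstream Tnc start. A window without TATAAA may therefore still hold a TATA box. TATAAA stood in 7.17% of 32817 windows of the same 150 bases, and since the printed windows were picked by hand, no rate is read from them. Its first base lay 26 bases before the Postn start, 25 before the Cyr61 start and at base 13 after the Dpt start. The Dpt window held 4 E-boxes, the last of which adjoins TATAAA, and 47.63% of all windows held at least 1. The Cyr61 window held GGAATG on the opposite strand, where it reads CATTCC, against 7.22% of all windows. None of the 9 held TGANTCA (4.17% of all windows) or a CArG box (0.84%). These are matches of letters and say nothing of whether a factor binds there.

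Tnc and Tgfbi, further adhesive proteins of the matrix, also stood lower in Ocn+ arrays, by less. Tnc encodes tenascin-C, a large glycoprotein of developing and healing bone. Its signal was 13.83, 13.74 and 13.77 on Ocn+ replicates 1, 2 and 3, and 14.14, 14.07, 14.13 and 14.04 on Osx+ replicates 1 to 4. The groups did not overlap, and arrays within a group lay close together. The means were 13.78 ± 0.05 (SD, n = 3) and 14.10 ± 0.05 (SD, n = 4). The difference of -0.31 (SE 0.13, interval -0.63 to 0.00) had a limma adjusted p of 0.946. The SE is larger than the spread of the Tnc arrays because limma draws each gene's variance toward that of all genes.

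Tgfbi encodes an integrin-binding protein induced by transforming growth factor beta. Its main probe set read 13.93, 13.60 and 13.40 on Ocn+ replicates 1, 2 and 3, and 14.22, 14.13, 14.10 and 13.85 on Osx+ replicates 1 to 4. The groups overlapped only through Ocn+ replicate 1 and Osx+ replicate 4. The difference was -0.44 (SE 0.19, interval -0.87 to 0.00), with a limma adjusted p of 0.945. The other Tgfbi probe sets gave -0.51 for 1415871_at, -0.75 for 1456250_x_at and -0.52 for 1437463_x_at, and the last was without overlap. All 4 Tgfbi probe sets thus stood lower in Ocn+ arrays, and they read the same RNA samples, so they are not independent. The ending _s_at or _x_at of a name marks sets whose probes can match other transcripts.

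**Figure D2:**
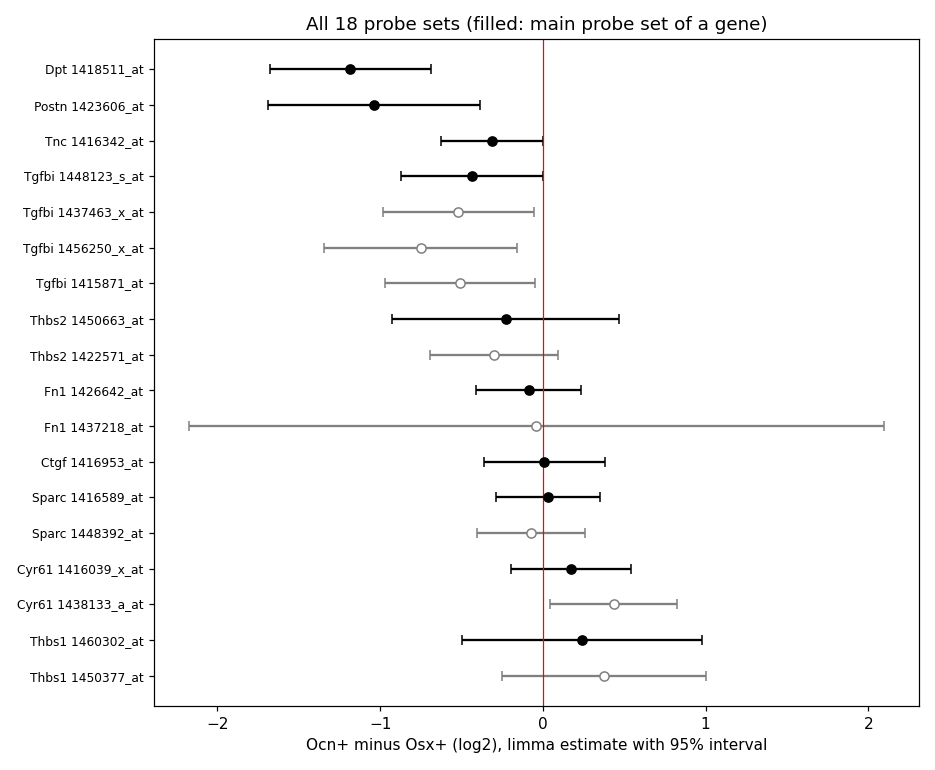
Difference Ocn+ minus Osx+ in log2 units (x axis) with its 95% interval from limma for each of the 18 probe sets; filled points are the main probe set of a gene. The intervals of Dpt and Postn lie wholly below 0, and among the main probe sets of the other 8 genes each interval reaches 0.

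The thrombospondins, secreted glycoproteins that bind the receptors CD36 and CD47 and restrain vessel growth, did not separate the groups. Thbs1 read 11.71, 12.43 and 12.54 on Ocn+ replicates 1, 2 and 3, and 11.55, 12.45, 11.67 and 12.28 on Osx+ replicates 1 to 4. The groups overlapped over most of their range. The difference was 0.24 (SE 0.31, interval -0.50 to 0.98; limma adjusted p = 0.999), and the other probe set 1450377_at gave 0.38. Thbs2 read 12.91, 13.59 and 13.61 on Ocn+ replicates 1, 2 and 3, and 13.24, 14.10, 13.24 and 13.81 on Osx+ replicates 1 to 4. Its difference was -0.23 (SE 0.30, interval -0.93 to 0.47; limma adjusted p = 0.999), and its other probe set 1422571_at gave -0.30. The intervals allow a change of nearly 1 log2 unit in the wider direction for either gene.

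Ctgf and Cyr61 encode the matricellular CCN proteins, which bind integrins and heparan sulfate and are widely used as targets of the YAP coactivator. Ctgf read 13.46, 13.73 and 13.67 on Ocn+ replicates 1, 2 and 3, and 13.54, 13.82, 13.57 and 13.51 on Osx+ replicates 1 to 4. The group means were 13.62 and 13.61, and the difference of 0.01 (SE 0.16) had an interval of -0.36 to 0.38. Cyr61 read 13.65, 14.0 and 13.92 on Ocn+ replicates 1, 2 and 3, and 13.71, 13.67, 13.57 and 13.80 on Osx+ replicates 1 to 4. The groups overlapped through Ocn+ replicate 1, and the difference was 0.17 (SE 0.16, interval -0.20 to 0.54; limma adjusted p = 0.999). The second Cyr61 probe set, 1438133_a_at, had 13.51, 13.63 and 13.73 on the Ocn+ arrays and 12.99 to 13.42 on the Osx+ arrays. On that set the groups did not overlap, with a difference of 0.44 (SE 0.17, interval 0.05 to 0.83) and a limma adjusted p of 1.00 over all probe sets. The main Cyr61 set is of the _x_at kind, and both sets gave a difference above 0.

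Sparc and the main Fn1 probe set had the narrowest ranges. Sparc read 14.90, 15.01 and 14.93 on Ocn+ replicates 1, 2 and 3, and 14.83, 14.89, 14.96 and 14.97 on Osx+ replicates 1 to 4. All 7 arrays lay within 0.17 log2 units, close to the highest value in the whole table (15.38). The difference was 0.03 (SE 0.14, interval -0.29 to 0.35), and -0.07 on the other Sparc set, 1448392_at. Fn1 read 13.83, 13.77 and 13.75 on Ocn+ replicates 1, 2 and 3, and 13.90, 13.94, 13.87 and 13.77 on Osx+ replicates 1 to 4. Its difference was -0.09 (SE 0.14, interval -0.41 to 0.23; limma adjusted p = 0.999). For both genes a group difference of more than 0.41 log2 units in either direction lies outside the interval of the main probe set. That limit concerns array signal, and whether Sparc signal still rises with RNA so near the highest value was not tested. The other Fn1 set, 1437218_at, sets no such limit, with a range of 3.61 over the arrays and a difference of -0.04 (SE 0.91, interval -2.18 to 2.09). For 7 of the 10 genes the residual SD was under the median of all genes (0.37), with a median of 0.18 over the 10.

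The arrays also fell into a high and a low class by their signal for Xist, an RNA of the inactive X chromosome. Xist and Eif2s3y were chosen after their values were seen. Xist read 12.33 to 12.96 on 4 arrays (Ocn+ replicates 2 and 3, Osx+ replicates 2 and 4) and 4.87 to 5.79 on 3 (Ocn+ replicate 1, Osx+ replicates 1 and 3). The Y-linked gene Eif2s3y read 8.03 to 10.41 on 6 arrays and 4.03 on Osx+ replicate 4. The 6 include Ocn+ replicates 2 and 3 and Osx+ replicate 2 of the high class, so these carried both signals. Whether such arrays mix RNA of both sexes, and whether the classes follow sex, was not tested. The 3′ minus 5′ signal of the Gapdh control probe sets, a measure of RNA integrity and amplification, was 0.59 to 0.64 on the high-Xist and 0.89 to 1.26 on the low-Xist arrays. For the Actb control it was 0.46 to 0.50 on the high-Xist and 0.47 to 0.77 on the low-Xist arrays, so by Actb the classes overlapped. With the cell group in the fit, 3490 of all genes, or 28.2%, differed between the classes at a limma adjusted p of 0.05.

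Of the 10 genes 3 differed between the classes, a share near that of all genes, and each was lower on low-Xist arrays, against 11.2% of all genes in that direction. Thbs1 lay between 11.55 and 11.71 on low-Xist and between 12.28 and 12.54 on high-Xist arrays, a difference of -0.76 (SE 0.11, limma adjusted p = 0.00854). Thbs2 lay between 12.91 and 13.24 on low-Xist and between 13.59 and 14.10 on high-Xist arrays, a difference of -0.70 (SE 0.12, limma adjusted p = 0.0112). These were the 2 of the 10 whose classes did not overlap, against 34.3% of all genes. Postn differed by -0.57 (SE 0.17, limma adjusted p = 0.0485), and its classes overlapped.

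The probe sets of one gene did not follow the classes alike. For Fn1 the other set 1437218_at read 8.33 to 10.17 on low-Xist and 10.80 to 11.94 on high-Xist arrays. That is a difference of -2.14 (SE 0.48, 4.39-fold, limma adjusted p = 0.0204 over all probe sets, of which 28.8% passed). The main Fn1 set differed by 0.05 (SE 0.11). For Thbs2 the other set 1422571_at differed by 0.25 (SE 0.12), opposite in sign to the main set, and for Thbs1 the other set 1450377_at by -0.15 (SE 0.26). Differences between probe sets were not tested, and their place on the transcripts was not used here. The Gapdh 3′ minus 5′ signal moved with the same arrays, while the Actb signal overlapped between the classes through Ocn+ replicate 1. The part of RNA integrity in these values was not tested.

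**Figure D3:**
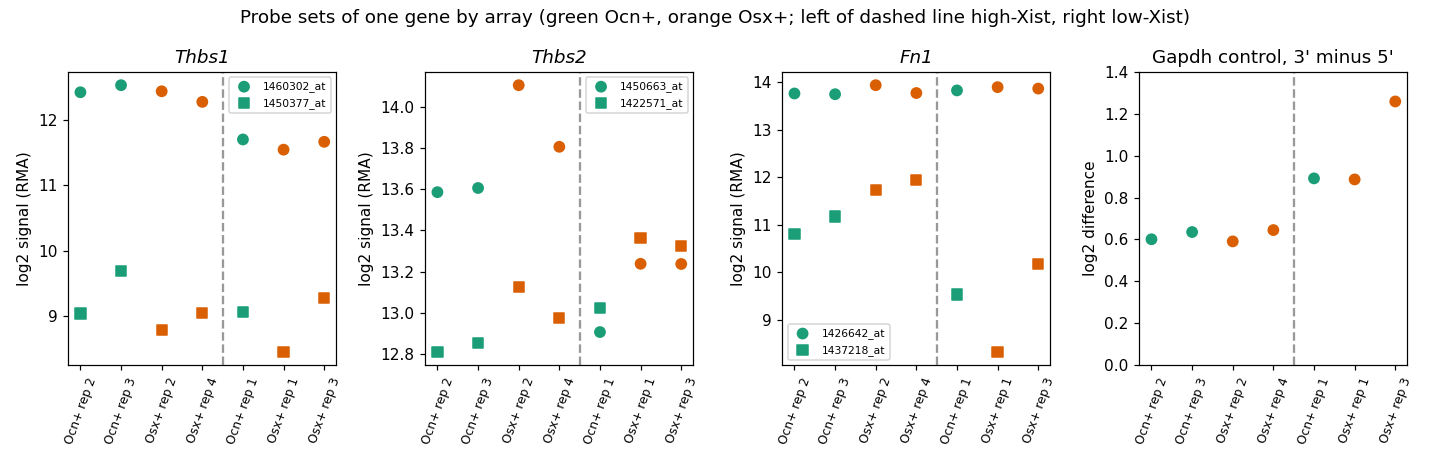
Log2 signal of each probe set of Thbs1, Thbs2 and Fn1 on the 7 arrays, and the 3′ minus 5′ difference of the Gapdh control, with high-Xist arrays left and low-Xist arrays right of the dashed line. The 1460302_at, 1450663_at and 1437218_at sets are lower on all 3 low-Xist arrays than on any high-Xist array, the main Fn1 set is level, and the Gapdh difference is larger on the low-Xist arrays.

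Since each class held arrays of both groups, the group differences were also read within them. Among the high-Xist arrays (2 Ocn+ and 2 Osx+) Dpt differed by -1.42, Postn by -0.95, Tgfbi by -0.50 and Tnc by -0.30. Among the low-Xist arrays (1 Ocn+ and 2 Osx+, so a single Ocn+ array) they differed by -0.76, -1.41, -0.23 and -0.31. For Dpt, Postn and Tnc the sign within a class carries no further information, since their groups do not overlap on all arrays. With the class in the fit Postn differed by -1.13 (SE 0.17, limma adjusted p = 0.0986) and Dpt by -1.16 (SE 0.20, limma adjusted p = 0.105). In that fit 0 of all genes passed 0.05 (0%) and 61 passed 0.1 (0.492%), Postn among them. The thrombospondin estimates became sharper, with Thbs1 at 0.11 (SE 0.11) and Thbs2 at -0.35 (SE 0.12, limma adjusted p = 0.256).

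How many genes lay apart depended on single arrays. Without Ocn+ replicate 1, 6 of the 10 did not overlap, against 13.4% of all genes, with Cyr61 higher and Dpt, Postn, Tnc, Tgfbi and Fn1 lower in Ocn+ arrays. Without Osx+ replicate 4, 5 did not overlap, against 9.94% of all genes, with Tgfbi and Fn1 joining the 3 of the full set. With the mean of all probe sets of a gene, 5 did not overlap, against 6.85% of all genes. Within the high-Xist arrays 7 did not, but with 2 arrays against 2 so did 55.2% of all genes. With all arrays kept, the share over all genes in either direction was 6.90%.

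Other genes of the system were read from lists, and in each list 0 genes passed over all genes. Among 26 measured relatives of the 10 (further CCN, thrombospondin, SPARC, tenascin and fibulin proteins) 13 stood above and 13 below 0, with a median of -0.01. Spock1, a proteoglycan of the SPARC family, differed by 1.62 (SE 0.58) without overlap. Sparcl1, another SPARC relative, differed by 1.08 (SE 0.59) and Aebp1, a collagen-binding protein, by -0.47 (SE 0.23). Among 21 measured receptors 8 stood above and 13 below 0, with a median of -0.09. The collagen receptor subunit Itga2 differed by 0.94 (SE 0.30), at a dim signal of 3.93 to 5.88 for which no detection call was available. Itga3, a laminin receptor subunit, differed by 0.45 (SE 0.23) and Itgb3, the beta subunit that pairs with alpha v, by 0.40 (SE 0.23).

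Among 27 measured targets and components of the YAP and serum response factor pathways, 14 stood above and 13 below 0, with a median of 0.02, near that of all genes and below 0 in some settings (-0.05 without Ocn+ replicate 1). Ajuba, a LIM protein that restrains the Hippo kinases, differed by 0.69 (SE 0.17), Gadd45a, a stress response gene, by 0.99 (SE 0.25), both without overlap. Igfbp3, which binds insulin-like growth factors, differed by 1.24 (SE 0.53). The list mean was 10.72 to 10.75 on Ocn+ and 10.58 to 10.67 on Osx+ arrays. The 3 named genes did not pass, with limma adjusted p from 0.708 to 0.951. Among 23 measured genes of the transforming growth factor beta axis 15 stood above and 8 below 0, with a median of 0.14. Smad3, which carries the signal to the nucleus, differed by 0.61 (SE 0.17), the receptor Tgfbr2 by 0.31 (SE 0.16) and the pseudoreceptor Bambi by 0.39 (SE 0.22).

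Among 21 measured collagens, cross-linking enzymes and small proteoglycans with which the 10 proteins assemble, 7 stood above and 14 below 0, with a median of -0.07. The lower ones by smallest p were Col12a1, a collagen on the surface of fibrils, at -1.06 (SE 0.38), Col6a3 at -0.41 (SE 0.15) and Col6a2 at -0.26 (SE 0.17). Col6a3, a chain of the microfibrillar collagen that binds many adhesive proteins, read 13.22 to 13.29 on the Ocn+ and 13.48 to 13.79 on the Osx+ arrays, with no overlap.

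The label check and markers of other cells were read beside these values. Sp7, which encodes osterix, read 12.26 to 12.93 on Ocn+ and 12.15 to 12.83 on Osx+ arrays and did not separate them, and Col1a1 read 14.91 to 15.05 on all 7. The osteocalcin genes were not analysed here. Marker lists of other cells stood at different levels in the groups, although 0 of their genes passed. Endothelial markers stood above 0 for 18 of 18 genes (list mean 9.60 to 9.93 on Ocn+ and 6.41 to 9.37 on Osx+ arrays). Neutrophil markers did so for 13 of 13 (10.95 to 11.29 and 7.57 to 10.62) and osteoclast markers for 8 of 8 (10.76 to 11.10 and 8.51 to 10.42). Macrophage markers stood below 0 for 13 of 15 genes (9.33 to 10.37 and 10.50 to 11.48). Cartilage markers did so for 12 of 15, with groups that overlapped (9.87 to 11.38 and 10.94 to 12.67).

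The median difference was 2.30 for the endothelial, 2.19 for the neutrophil and 1.18 for the osteoclast list. It was -1.17 for the macrophage and -0.79 for the cartilage list, against 0.02 for all genes. The 2 brightest markers of each list did not all share its size or sign. Among endothelial markers Eng differed by 0.56 (SE 0.60) and Ramp2 by 0.80 (SE 0.62). Mmp9, on both the neutrophil and the osteoclast list, differed by 1.61 (SE 0.51), S100a9 of neutrophils by 0.54 (SE 0.44) and Acp5 of osteoclasts by 1.51 (SE 0.63). Of the macrophage genes Csf1r differed by 0.28 (SE 0.38) and Lyz2 by -0.19 (SE 0.33), and of the cartilage genes Acan by -0.70 (SE 0.24) and Col2a1 by -0.79 (SE 0.48).

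Markers of tendon and periosteal fibroblasts, the cells known for Dpt and Postn, were split, with 9 of 16 above 0. Their median was 0.22, Dpt itself counted. This list shares Ctsk with the osteoclast and Pdgfra with the stromal progenitor list, so it is not limited to fibroblasts. The list mean was 10.36 to 11.30 on Ocn+ and 10.23 to 10.91 on Osx+ arrays. Fmod, a small proteoglycan bright in tendon, differed by -0.18 (SE 0.15) and the corneal and tendon proteoglycan Lum by -0.03 (SE 0.25). Megakaryocyte and platelet markers, of interest because platelets store thrombospondin, stood above 0 for 6 of 11. Vwf, which is also on the endothelial list, is counted there. The list means were 6.93 to 7.77 on Ocn+ and 6.65 to 7.61 on Osx+ arrays. Differences stood above 0 for 7 of 12 mural cell, 8 of 12 osteolineage, 10 of 12 stromal progenitor, 1 of 7 erythroid and 3 of 9 B cell markers. The brightest of these were Acta2 (-0.22) and Tagln (-0.07) of mural cells, Col1a1 (-0.05) and Col1a2 (0.02) of the osteolineage, and Cxcl12 (0.74) and Pdgfrb (0.24) of stromal progenitors. On the platelet list, Pf4 differed by -1.11 (SE 0.48) and Selp by 2.62 (SE 1.17). Selp read 11.44 to 12.88 on Ocn+ and 7.64 to 12.60 on Osx+ arrays. The erythroid genes Slc4a1 and Tfrc differed by -0.80 and -0.21, and the B cell genes Cd79b and Ebf1 by -0.31 and 0.70. The part of these other cells in the differences of Dpt, Postn, Tnc and Tgfbi was not tested.

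**Figure D4:**
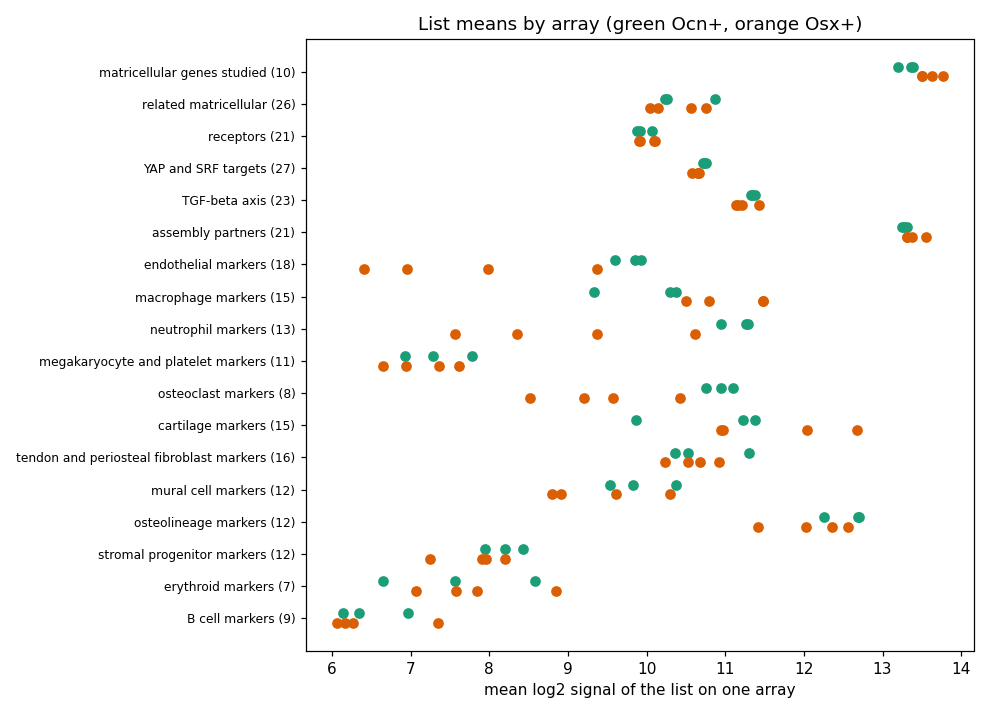
Mean log2 signal of each gene list on each array (x axis), green for the 3 Ocn+ and orange for the 4 Osx+ arrays, with the number of measured genes in brackets. Endothelial, neutrophil and osteoclast lists lie higher and the macrophage list lower on every Ocn+ array, while the fibroblast and receptor lists overlap; list means are not comparable between lists.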

How the data were processed

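Expression was measured on 7 Affymetrix mouse arrays, 3 Ocn+ and 4 Osx+, grouped by sample title. Per the labels' protocols, RNA was amplified linearly (NuGen Ovation V2), which favours transcript ends, so RNA integrity can shift probe sets unequally. The deposited values are log2 signals that the authors made with RMA, per the submitters' processing notes; the software version is not given in the sources used here. RMA equalizes distributions between arrays, so total RNA per cell cannot be read. Array medians ran from 8.25 to 8.35. No detection calls were used, and precision is limited by the number of arrays.

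Of 22690 probe sets, 64 controls, 691 with several symbols and 1555 with none were left out. The rest were named by the platform annotation, 20351 of them updated to current symbols through Entrez identifiers. The fit was limma 3.58.1 in R 4.3.3 (lmFit, eBayes, no block), 2-sided, adjusted over 12393 genes. A fold is the brighter over the dimmer group mean, back-transformed. Rows other than a gene's main probe set were read from a fit over all 20380 probe sets. Xist class (log2 signal over or under 8) was defined from the data. The genes, lists and tests were chosen with earlier results of these data known. Named list genes are the 3 of smallest p per list, and the 2 brightest per marker list. Simulated data with 200 changed genes among 12393, in 20 runs of this comparison, gave 25.1% recovery at a change of 1 log2 unit, 65.7% at 2 and 92.3% at 4, with 7.5 false calls per run. The simulated noise was normal and independent between genes, whereas 28.2% of all genes differed by Xist class on the real arrays. Recovery and false calls on the real arrays may therefore differ from these. Alternatives were the replicate block, each array left out, filters, rescaling, other priors, array weights, other probe set choices, the Xist class and a threshold of 0.1.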

Additional observations from a re-analysis of the deposited data

Results flagged for a closer look

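Of 75 sets of 4 Osx+ values examined (probe sets, named genes and list means), 4 held an array far from the other 3 by Dixon's criterion, where chance gives about 1 in 20. None was a probe set of the 10 matricellular genes. Itga2 was lowest on Osx+ replicate 3 (3.93, the others 4.59 to 4.72) and Smad3 highest on Osx+ replicate 1 (7.61, the others 7.14 to 7.22). The B cell regulator Ebf1 was lowest on Osx+ replicate 1 (6.75, the others 9.87 to 10.02), where the mean of the B cell marker list was highest (7.34, the others 6.06 to 6.27).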

How the results depend on the processing

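Differences of Postn, Dpt, Tnc, Tgfbi, Thbs1, Thbs2, Fn1 and Cyr61 kept their sign in all 19 settings tried for each, but not every setting could turn it. The filters, the trended prior and adjustment over all probe sets leave the difference itself unchanged. So do the other probe set choices for a gene with a single set. The replicate block gave the same differences as leaving out Osx+ replicate 4. Without Ocn+ replicate 1 the Thbs2 difference shrank to -0.0007. For Dpt, Postn and Tnc, whose groups do not overlap, leaving out arrays cannot turn the sign. Dpt passed with array weights (-1.39), when 1 of the 10 genes and 97 of all were called; 19 of all genes were called within the high-Xist arrays, a setting chosen after seeing the data. Leaving out each array in turn, all genes called ranged from 0 to 3 (3 without Osx+ replicate 2 or 3), called genes among the 10 stayed at 0, and those without overlap ranged from 3 to 6. They numbered 5 with the mean of all probe sets (6.85% of all genes) and 7 within the high-Xist arrays (55.2% of all genes). Differences near 0 changed sign. Ctgf was -0.0255 with the replicate block, -0.0220 with median centring and -0.0173 with the Xist class, and -0.0447 to 0.0866 without single arrays. Sparc was -0.0006 with quantile normalization, -0.0022 with median centring, -0.0217 with the mean of probe sets and -0.0722 with the set of largest variance, and -0.0031 to 0.0522 without single arrays. Without single arrays Postn ranged from -1.25 to -0.76 and Dpt from -1.37 to -1.03. Same-numbered arrays correlated at 0.63, 0.45 and -0.30 in their deviations from group means. Those numbered 1 and 2 share an Xist class and those numbered 3 do not. Arrays of the same class but different number correlated at 0.41 to 0.57, and those of different class and number at -0.68 to -0.34. The sign of these values thus followed Xist class and not the number. A part of pairing by number beyond the class was not tested. No pairing was used in the main fit, and the replicate block called 0 genes (Postn -0.99, Dpt -1.21). No detection calls bound the dim values.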
